A study of Oryza sativa with 12 samples.

Results

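The SPL genes (SQUAMOSA promoter binding protein-like) code for plant transcription factors with a zinc-binding SBP domain, and the members described here are the rice SPL genes named in work on panicle branching, tillering and grain size. Members were chosen by name, as every probe set whose single annotated gene carries SPL3, SPL4, SPL7, SPL12, SPL13, SPL14, SPL16, SPL17 or SPL18 as its symbol or RefSeq synonym, with or without the prefix Os. Of these 9 names, 6 were found among the 17905 genes with a probe set of their own: SPL4 on chromosome 2, SPL7 on chromosome 4, SPL12 on chromosome 6, SPL14 and SPL16 on chromosome 8, and SPL18 on chromosome 10. They had 9 probe sets, 4 for SPL4 and 1 for each of the others, and all 9 passed the filter on dim probe sets, along with 34316 of the 57194 non-control probe sets. SPL3 and SPL17 were not matched by name, and SPL13, a grain length gene, was matched to a gene but to no single-gene probe set, so none of the 3 was analysed here. The name SPL7 also belongs to "spotted leaf 7", the heat stress transcription factor HSFA4D, which the rule takes as well. It is no SBP-box gene and was counted apart.

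The measurements came from 12 Affymetrix rice arrays, 3 for each of 4 groups. The groups were flag leaf of KMR3, fully emerged young panicle of KMR3, flag leaf of IL50-7 and fully emerged young panicle of IL50-7. IL50-7 is an introgression line described in the study's title as high yielding, and both lines were field grown. The labels name no treatment, no plant age and no introgressed segment, and they call the replicates biological without saying how many plants each held. Each value is a probe set's fluorescence intensity, given here as log2 after quantile normalization over the 12 arrays. A probe set was called not above background on an array where it lay under log2 4.01, which is the 95th percentile over 23 control probe sets whose transcripts had not been spiked in. Because probe sets differ in how brightly they bind, levels are compared between groups for 1 probe set and never between genes.

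In rice, the members are targets of the microRNA miR156, which keeps SPL transcripts low in juvenile shoots and lets them rise as the plant ages. SPL14, known as IPA1 and WFP, is the best studied: plants with more of it make fewer tillers and more branched panicles, and SPL7 and SPL17 act in the same process. SPL16, known as GW8, promotes cell division in the spikelet hull and widens the grain, and SPL18 also affects grain weight and number. A flag leaf is a mature organ, whereas an emerged panicle holds spikelets with hulls and anthers but has already formed its branches, so the branching stage itself was not sampled here.

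The tissue labels were compared with marker genes, whose lists were chosen with earlier results of these data known, so they are no independent check. The mean of 9 floral organ markers lay between 3.62 and 4.51 in the leaf arrays and between 10.15 and 10.45 in the panicle arrays. Not all were off in leaf, where 4 to 6 of the 9 exceeded background on each array. The smallest organ difference among them in KMR3 was that of MADS3, at 7.05 in leaf and 7.57 in panicle. The mean of 6 leaf markers lay between 11.54 and 12.02 in leaves and between 7.09 and 8.34 in panicles. That fall was uneven: CRSH2 and BURP2 differed by -10.29 and -9.20 in KMR3, whereas the photosynthesis gene RBCS differed by -0.53. The photosynthesis gene CAB2R was at the top of the normalized scale, 13.93, in all 6 leaf arrays, so its -0.23 in KMR3 is no measured fall. Its deposited intensities in KMR3 were 13158 to 16198 in leaf and 12768 to 20998 in panicle. Several arrays stood apart from their group. At 26 probe sets that were on in the leaves of 1 line and off in the other and that split the panicle arrays, KMR3 panicle 3 and IL50-7 panicle 2 lay on the side of their own line's leaves at 4 of 26, against 21 to 24 of 26 in the other 4 panicle arrays. Whether the labels of these 2 arrays were exchanged was not tested. The line differences in panicle of the 6 SPL genes, SPL4 on its brightest probe set, are given with and without this pair. IL50-7 leaf 1 deviated from its group in the direction of panicle tissue (r = 0.43 over probe sets, against -0.15 to 0.10 in the other leaf arrays). The ratio of 3′ to 5′ signal of a GAPDH control, a measure of RNA integrity, was 2.54 to 6.32 in leaves and 7.68 to 23.3 in panicles. That of actin was 5.85 to 13.57 in leaves and 18.72 to 29.4 in panicles, except for 7.99 in IL50-7 panicle 3. The ratio of a second GAPDH control overlapped between the organs. The part of RNA integrity in the organ differences was not tested. In a mixed organ, fewer cells with a transcript and less transcript per cell cannot be told apart.

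The first question was whether the SPL genes differ between panicle and flag leaf. SPL18, SPL16, SPL14 and SPL12 were brighter in all 3 panicle arrays of each line than in all 3 leaf arrays, SPL4 was dimmer in the panicle on each of its 4 probe sets by group means, and SPL7 did not pass the test. With limma and an adjusted p under 0.05, SPL18 and SPL12 rose in the KMR3 panicle, and SPL18, SPL14, SPL16 and SPL12 rose in the IL50-7 panicle. SPL4 fell in both lines on a pair of its probe sets and in IL50-7 on all 4.

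**Figure D1:**
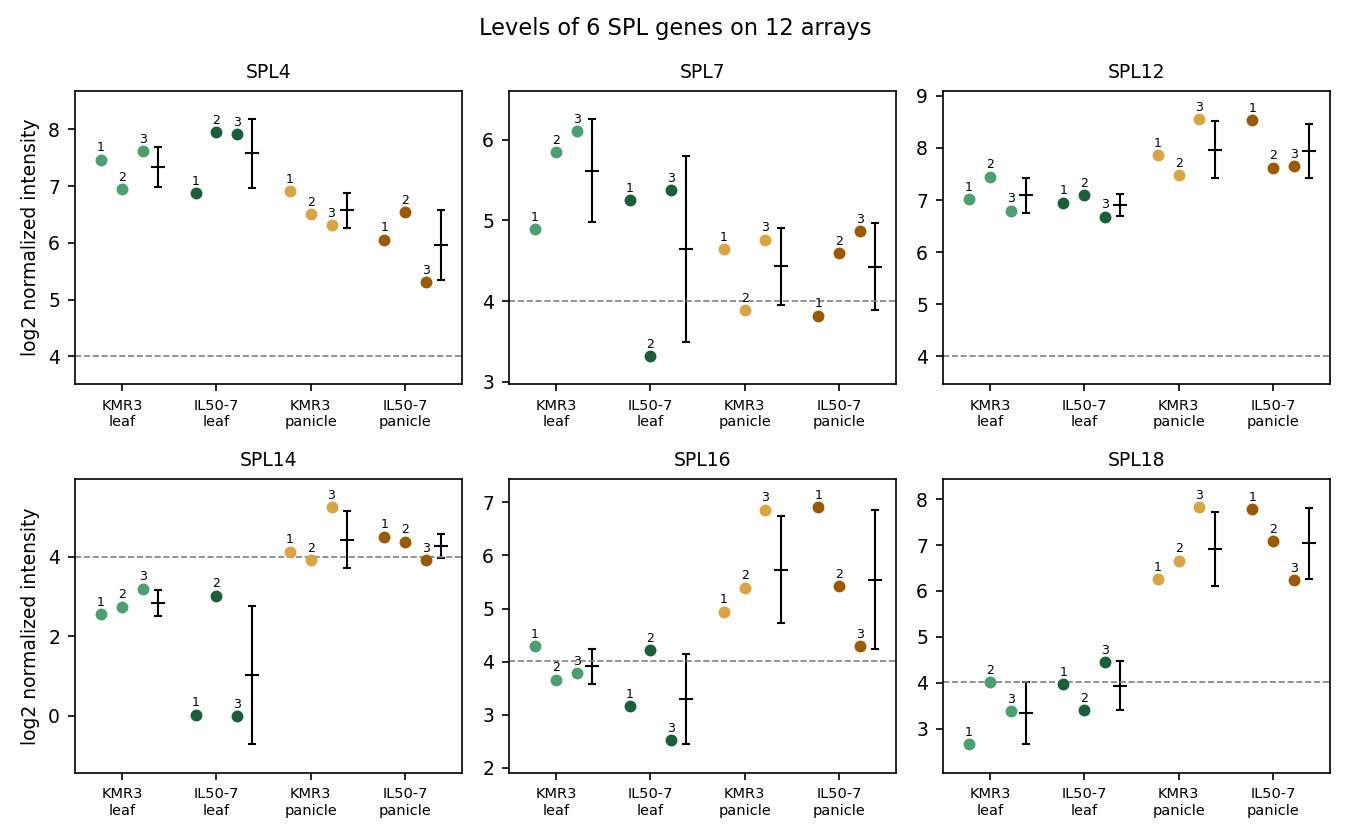
Normalized log2 intensity (y axis) of the 6 SPL genes on each of the 12 arrays, with SPL4 shown by its brightest probe set, grouped by line and organ, with small digits for the replicate, bars for mean ± SD (n = 3) and a dashed line at the background of 4.01. SPL12, SPL14, SPL16 and SPL18 sit higher in panicles than in leaves in both lines, SPL4 sits lower, and SPL7 overlaps in IL50-7.

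SPL18, a grain weight and grain number gene, was called in both lines in 24 of 24 alternatives. Its log2 values were 2.66, 4.01 and 3.39 in KMR3 leaf and 6.26, 6.66 and 7.82 in KMR3 panicle. In IL50-7 they were 3.96, 3.40 and 4.45 in leaf and 7.78, 7.08 and 6.24 in panicle. All 6 panicle values were thus above all 6 leaf values, and only 1 leaf array, IL50-7 leaf 3, exceeded the background, with KMR3 leaf 2 just under it. As deposited, before scaling between arrays, the intensities were 4.18 to 17.7 over the 6 leaf arrays and 75.7 to 276 over the 6 panicle arrays. The panicle exceeded the leaf by 3.56 ± 0.53 on the log2 scale in KMR3 (SE; limma adjusted p = 0.000248), at least 7.50-fold over the background since no KMR3 leaf array was above it. The difference in IL50-7 was 3.10 ± 0.53 (adjusted p = 0.000659), and no fold is given there because the leaf mean of 3.94 ± 0.53 (SD, n = 3) was under background with 1 array above it.

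SPL16, which widens the grain, was also brighter in the panicle, with more spread between panicle arrays than SPL18. Its log2 values in KMR3 were 4.29, 3.66 and 3.79 in leaf and 4.94, 5.39 and 6.86 in panicle. Those in IL50-7 were 3.16, 4.22 and 2.52 in leaf and 6.91, 5.42 and 4.30 in panicle. The groups did not overlap within either line, although IL50-7 panicle 3 lay only just above the highest leaf arrays, and 1 leaf array of each line was above background against 3 of 3 panicle arrays. The difference passed the test in IL50-7 (2.24 ± 0.70, limma adjusted p = 0.0218) and not in KMR3 (1.82 ± 0.70, adjusted p = 0.0515). The IL50-7 call was lost without IL50-7 leaf 3 (1.86, adjusted p = 0.0835) and without IL50-7 panicle 1 (1.56, adjusted p = 0.0902). It was also lost in a fit of the 6 IL50-7 arrays alone (adjusted p = 0.0524) and without both KMR3 panicle 3 and IL50-7 panicle 1 (adjusted p = 0.0585). In KMR3, SPL16 passed in 8 of 23 alternatives.

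SPL14, the panicle branching and tillering gene, was dim everywhere. In KMR3 its log2 values were 2.55, 2.75 and 3.20 in leaf and 4.13, 3.91 and 5.24 in panicle. In IL50-7 they were 0.036, 3.02 and 0.0011 in leaf and 4.50, 4.38 and 3.92 in panicle. No leaf array and 2 of 3 panicle arrays in each line were above background, so the leaf values are bounds and not levels. The deposited intensities were 0.928 to 11.8 in the 6 leaf arrays and 14 to 44.1 in the 6 panicle arrays. SPL14 rose in the IL50-7 panicle (3.09 ± 0.74, limma adjusted p = 0.00517), where the fold that could be measured over background was at least 1.2. In KMR3 the difference of 1.59 ± 0.74 did not pass (adjusted p = 0.0959), with a bound of at least 1.34-fold. The larger log2 difference in IL50-7 came with 2 IL50-7 leaf arrays that lay under the floor of 0.26 set before testing.

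SPL12, known in rice for a role in seed dormancy, was well above background in every array, so that its fold was measured in both lines. It was at 7.02, 7.45 and 6.80 in KMR3 leaf and at 7.87, 7.48 and 8.56 in KMR3 panicle. In IL50-7 it was at 6.95, 7.09 and 6.68 in leaf and at 8.53, 7.62 and 7.65 in panicle. The lowest panicle array of KMR3, at 7.48, was barely above its highest leaf array, at 7.45. The panicle was 1.84-fold higher in KMR3 (0.88 ± 0.33 on the log2 scale, limma adjusted p = 0.0447) and 2.04-fold higher in IL50-7 (1.03 ± 0.33, adjusted p = 0.0235). The KMR3 call held in 10 of 24 alternative analyses, and without KMR3 panicle 3 the difference was 0.58 (adjusted p = 0.171). In IL50-7 it held in 22 of 24 and was lost without IL50-7 leaf 3 (0.91, adjusted p = 0.0802) or IL50-7 panicle 1 (0.73, adjusted p = 0.0928).

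SPL7, which acts with SPL14 on tillering and panicle branching, was above background in 3 of 3 KMR3 leaf arrays and in 2 of 3 arrays of each other group. Its values in KMR3 were 4.89, 5.85 and 6.11 in leaf and 4.64, 3.89 and 4.76 in panicle, so that the groups did not overlap. In IL50-7 they were 5.25, 3.32 and 5.38 in leaf and 3.82, 4.59 and 4.87 in panicle, and here they did. The difference was -1.19 ± 0.58 in KMR3 (limma adjusted p = 0.112) and -0.22 ± 0.58 in IL50-7 (adjusted p = 0.782). In KMR3 it passed in 2 of 23 alternatives. The namesake HSFA4D, a heat stress factor, ranged from 6.58 to 8.13 and fell by 0.87 ± 0.30 in the IL50-7 panicle (adjusted p = 0.0354), while its difference in KMR3 was 0.13 ± 0.30 (adjusted p = 0.75).

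SPL4 was the only member with several probe sets, and in the main fit it was the only SPL gene among the members called lower in the panicle. The brightest of the 4, Os.51367.2.S1_x_at, gave 7.47, 6.94 and 7.62 in KMR3 leaf and 6.92, 6.50 and 6.31 in KMR3 panicle. In IL50-7 it gave 6.88, 7.95 and 7.91 in leaf and 6.05, 6.54 and 5.31 in panicle. All panicle arrays lay under all leaf arrays within each line, though KMR3 panicle 1 all but met KMR3 leaf 2. The test called the fall in IL50-7 (-1.61 ± 0.38, 3.06-fold lower, limma adjusted p = 0.00459) and not the difference in KMR3 (-0.76 ± 0.38, adjusted p = 0.117). Os.51367.1.S3_at gave a like picture, with -1.30 ± 0.28 in IL50-7 (2.45-fold lower, adjusted p = 0.00276) and -0.55 ± 0.28 in KMR3 (adjusted p = 0.125). On the deposited scale without normalization the IL50-7 call on Os.51367.1.S3_at was lost (-0.90, adjusted p = 0.116) and its KMR3 difference turned to 0.062.

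The other 2 SPL4 probe sets were above background in every leaf array and in no panicle array, and they were called lower in both lines. Os.51367.1.S2_at was at 5.31, 5.89 and 5.37 in KMR3 leaf and at 0.48, 3.44 and 0.89 in KMR3 panicle. It was at 5.08, 6.39 and 5.85 in IL50-7 leaf and at 0.39, 3.51 and 3.36 in IL50-7 panicle. The panicle was at least 2.86-fold lower than the leaf in KMR3 (-3.92 ± 0.92, limma adjusted p = 0.00457) and at least 3.40-fold lower in IL50-7 (-3.35 ± 0.92, adjusted p = 0.0112). For Os.51367.1.S1_x_at the bounds were at least 3.10-fold in KMR3 (-2.64 ± 0.73, adjusted p = 0.011) and at least 3.49-fold in IL50-7 (-3.74 ± 0.73, adjusted p = 0.00148). The suffix _x_at on 2 of the 4 marks probes that may also bind other transcripts, and probe positions along the transcript were not analysed here. All 4 probe sets had a negative difference in both lines, with measured or bounded falls of 2.45-fold to at least 3.49-fold where called.

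**Figure D2:**
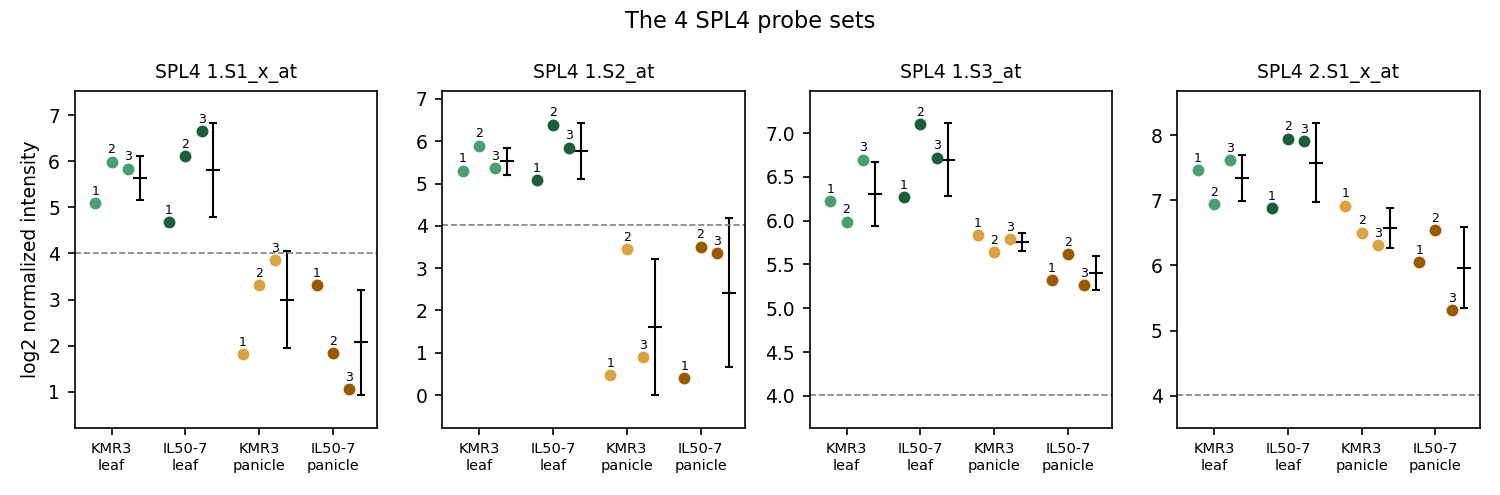
Normalized log2 intensity (y axis) of the 4 SPL4 probe sets on the 12 arrays, by line and organ, with small digits for the replicate, bars for mean ± SD (n = 3) and a dashed line at the background of 4.01, each panel titled by the end of the probe set identifier. Os.51367.1.S1_x_at and Os.51367.1.S2_at drop below the background in all 6 panicle arrays, whereas Os.51367.1.S3_at and Os.51367.2.S1_x_at stay above it.

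Counted over probe sets, 2 of 9 were called higher and 2 of 9 lower in the KMR3 panicle, where 22.5% of all tested probe sets were called higher and 25% lower. In IL50-7, 4 of 9 were called higher and 4 of 9 lower, against 22.4% and 23.2% of all tested. With SPL4 represented by its brightest probe set, 2 of 6 genes rose and 0 fell in KMR3, and 4 of 6 rose and 1 fell in IL50-7. Leaf and panicle arrays did not overlap for 4 genes higher and 2 lower in KMR3, where 27.8% and 31.5% of all tested probe sets were so separated. In IL50-7 they did not overlap for 4 genes higher and 1 lower, against 25.6% and 28.4%. Without KMR3 panicle 3 and IL50-7 panicle 2, 3 of 9 probe sets were called in KMR3 and 8 of 9 in IL50-7, against 41.5% and 39.9% of all tested. The median difference over the 6 genes was 1.24 in KMR3 and 1.64 in IL50-7, beside -0.11 and -0.06 over all tested probe sets. Leaf against panicle thus separates much of the array, and with 6 genes the counts are a description of these members. For SPL12, SPL14 and SPL16 the order of group means was KMR3 panicle, IL50-7 panicle, KMR3 leaf and IL50-7 leaf, and for SPL18 the lines were exchanged within each organ. In these 4 genes the step between panicle and leaf was the only one at which neighbouring groups did not overlap.

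**Figure D3:**
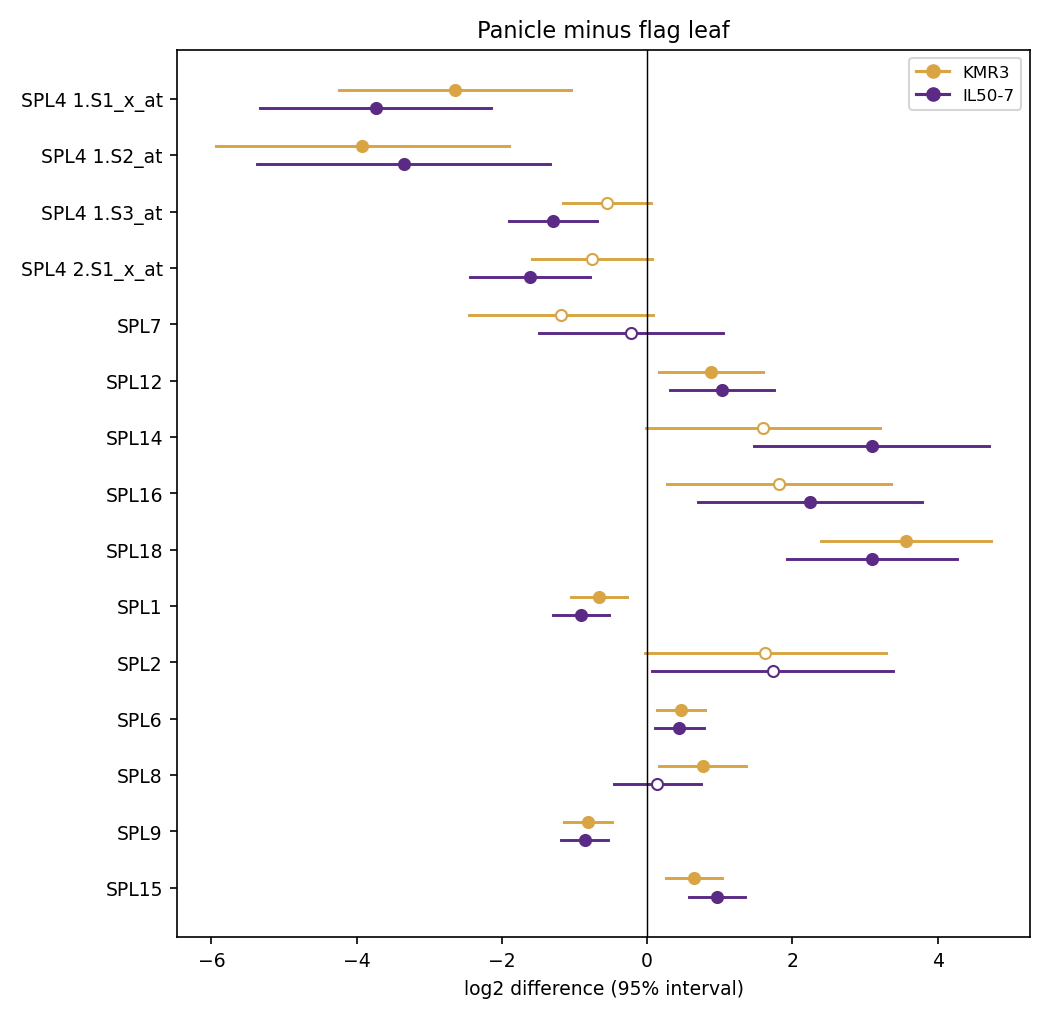
Panicle minus leaf log2 difference (x axis) of each member probe set and of 6 other SPL genes in KMR3 and IL50-7, with 95% intervals from the limma fit, and filled dots for an adjusted p under 0.05. SPL12, SPL14, SPL16 and SPL18 lie on the positive side in both lines, and the SPL4 probe sets lie on the negative side.

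Among the panicle arrays, the same pair gave the highest values of several members. KMR3 panicle 3 and IL50-7 panicle 1 held the 2 highest of the 6 panicle values for SPL12, SPL14, SPL16 and SPL18, and the 2 lowest for no member. Of all tested probe sets, 21.8% had this pair highest and 18.6% lowest. Among the 6336 probe sets called higher in the panicle of both lines, which were 18.5% of those tested, 34.5% had it highest. The lower array of the pair exceeded the highest of the other 4 panicle arrays by 0.67 for SPL12, 0.12 for SPL14, 1.44 for SPL16 and 0.70 for SPL18. Of 6 other SPL genes, SPL1 and SPL2 were also highest in this pair, SPL2 at 8.84 in KMR3 panicle 3 and 8.88 in IL50-7 panicle 1 against 6.83 to 7.55 in the other 4. The mean of 6 anther markers was 10.56 in KMR3 panicle 3 and 10.5 in IL50-7 panicle 1, and 7.78 to 9.59 in the others. RAFTIN1, a BURP-domain gene of the tapetum and 1 of the 6 markers, was at 11.06 and 10.98 in the pair and at 4.92 to 7.77 in the other 4. RTS, TDR, MSP1 and CP1 were also highest in the pair, RTS only narrowly (13.93 and 13.81, against at most 13.72). C6 was not, with 13.48 in IL50-7 panicle 2 against 13.41 and 13.31 in the pair. The pair was singled out after the values were seen. By its labels it holds 1 array of each line, but KMR3 panicle 3 is among the arrays on the other line's side at most of the 26 probe sets. The part of panicle stage or anther content in the pattern was not tested. Without the pair, 3 of 9 member probe sets were called between organs in KMR3 and 7 of 9 in IL50-7, where the same fit called 44.4% and 42.5% of all tested probe sets.

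**Figure D4:**
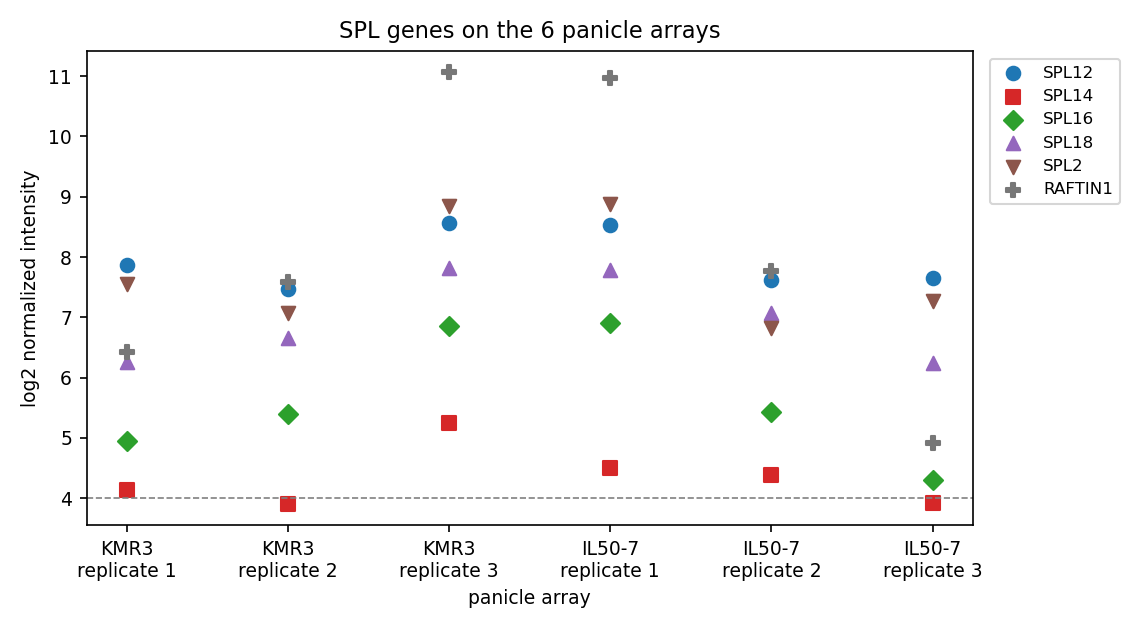
Normalized log2 intensity (y axis) of SPL12, SPL14, SPL16, SPL18, SPL2 and the anther marker RAFTIN1 on the 6 panicle arrays, with a dashed line at the background of 4.01. KMR3 panicle 3 and IL50-7 panicle 1 are the 2 highest for all 6 genes.

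The second question was whether the SPL genes differ between the introgression line and KMR3. No member was called in either organ by limma (adjusted p = 1 for all 9 probe sets), with 0.0729% of all tested probe sets called in leaf and 0% in panicle. At an unadjusted p under 0.05, 1 member probe set passed in leaf and 0 in panicle, against 4.85% and 3.29% of all tested. The intervals of the differences show what 3 arrays a group could resolve.

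In flag leaf the closest was SPL14, lower in IL50-7 by -1.65 ± 0.74 (95% interval -3.27 to -0.04, limma unadjusted p = 0.0456, adjusted p = 1). All 6 leaf values were under background, and the groups overlapped, so this is no measured fold. It was -0.47 with the floor at the 25th percentile, -1.19 without IL50-7 leaf 1 or without IL50-7 leaf 3, and -2.57 without IL50-7 leaf 2 (adjusted p = 0.377). SPL7 differed by -0.97 (interval -2.23 to 0.30) and SPL12 by -0.18 (interval -0.90 to 0.54). SPL16 and SPL18 were under background on average in the leaves of both lines, with differences of -0.61 and 0.59. For SPL4 the brightest probe set gave 0.24 (interval -0.59 to 1.06), and the other 3 gave 0.17, 0.25 and 0.39.

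In panicle, where SPL14, SPL16 and SPL18 were brightest, the lines gave nearly the same means. SPL14 averaged 4.43 ± 0.71 in KMR3 and 4.27 ± 0.31 in IL50-7 (SD, n = 3), a difference of -0.16 with an interval of -1.77 to 1.46. SPL16 averaged 5.73 ± 1.0 and 5.54 ± 1.31, which differed by -0.19 (interval -1.73 to 1.35). SPL18 averaged 6.92 ± 0.81 and 7.03 ± 0.77, which differed by 0.12 (interval -1.05 to 1.29). These intervals reach past 1 on the log2 scale in each direction, so a difference of that size was not detectable with these arrays. SPL12 was more tightly bounded, at -0.03 (interval -0.75 to 0.69). SPL4 gave -0.61 on its brightest probe set (interval -1.44 to 0.21) and -0.35 on Os.51367.1.S3_at (interval -0.96 to 0.26). On Os.51367.1.S3_at the lines did not overlap, with 5.64 to 5.84 in KMR3 and 5.26 to 5.62 in IL50-7. This was so in this direction for 4.07% of all tested probe sets. Os.51367.1.S1_x_at and Os.51367.1.S2_at, under background in every panicle array, gave -0.92 and 0.81, opposite in sign.

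Without KMR3 panicle 3 and IL50-7 panicle 2, the pair on the other line's side at most of the 26 probe sets, 125 probe sets were called between the lines in panicle and still 0 members. The differences were then 0.20 for SPL14, 0.43 for SPL16, 0.55 for SPL18, 0.42 for SPL12, 0.08 for SPL7 and -1.03 for the brightest SPL4 probe set (limma adjusted p = 0.57). For SPL14, SPL16, SPL12 and SPL7 the sign was thus opposite to that over all 12 arrays, and no direction between the lines can be given for them. Nor can one be given for SPL18, whose sign held in 19 of 24 alternatives and was opposite without IL50-7 panicle 1 (-0.25).

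**Figure D5:**
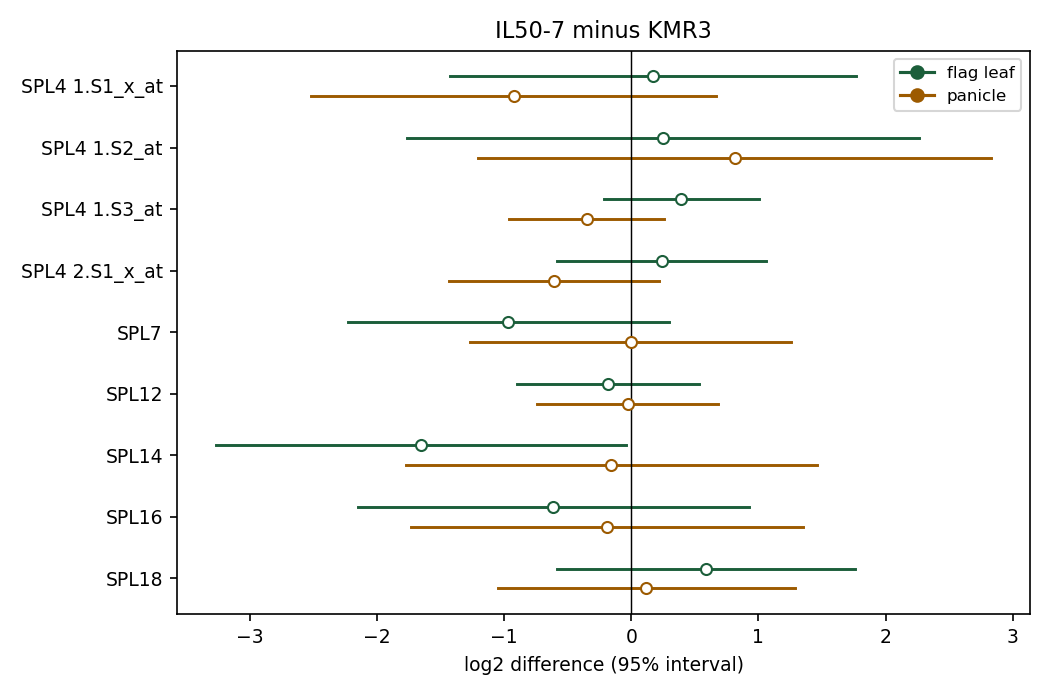
IL50-7 minus KMR3 log2 difference (x axis) of each SPL probe set in flag leaf and in panicle, with 95% intervals from the limma fit and open dots where the adjusted p was 0.05 or more. Every dot is open, and the interval of SPL14 in leaf is the only one that leaves out 0.

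The organ difference was also compared between the lines by an interaction term. No member passed (0 of 9 by limma, adjusted p = 1 for all, against 0.0291% of all tested, and 0 at an unadjusted p under 0.05, where 3.91% of all tested probe sets passed). SPL14 gave 1.5 ± 1.04, a value that rests on leaf arrays under background and was 0.31 with the floor at the 25th percentile. SPL7 gave 0.96, and SPL4 gave -0.85 on its brightest probe set and -0.74 on Os.51367.1.S3_at. The SPL4 probe sets Os.51367.1.S1_x_at and Os.51367.1.S2_at, under background in every panicle array, gave -1.09 and 0.56, opposite in sign. So a call in IL50-7 without one in KMR3, as for SPL14, SPL16 and the brightest SPL4 probe set, was not a tested difference between the lines. The organ comparison in IL50-7 and the line comparison in leaf also share the IL50-7 leaf arrays.

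Of the other rice SPL genes, 6 could be tested, most of which miR156 does not target. In KMR3, 3 rose and 2 fell in the panicle, and in IL50-7, 2 rose and 2 fell, beside 22.5% higher and 25% lower over all tested probe sets in KMR3 and 22.4% and 23.2% in IL50-7. SPL9 fell in both lines, by 0.81 ± 0.15 in KMR3 (limma adjusted p = 0.00101) and by 0.86 ± 0.15 in IL50-7 (adjusted p = 0.000698). On the deposited scale neither SPL9 call held, with -0.39 in KMR3 (adjusted p = 0.327) and -0.78 in IL50-7 (adjusted p = 0.0576). With equal array medians the KMR3 call was also lost (-0.56, adjusted p = 0.144). SPL1 also fell, 1.59-fold in KMR3 and 1.88-fold in IL50-7, but on the deposited scale it gave -0.15 in KMR3 (adjusted p = 0.771) and -0.71 in IL50-7 (adjusted p = 0.141). SPL15 rose 1.56-fold and 1.96-fold. SPL8, known as LIGULELESS1 and needed for the ligule, rose 1.70-fold in KMR3 (adjusted p = 0.0373), a call held in 19 of 24 alternatives. SPL6 rose in both lines, 1.36-fold in IL50-7 (adjusted p = 0.0336), though the IL50-7 call held in 14 of 24 alternatives and its other probe set gave a difference of the opposite sign. Some members of the wider family thus also fell in the panicle as SPL4 did, with differences of at most 0.91 in size.

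Of 12 tested panicle branching and tillering genes, 4 rose and 4 fell in KMR3, where 22.5% of all tested probe sets were called higher and 25% lower. In IL50-7, 4 rose and 3 fell, against 22.4% and 23.2%, so these counts lay near the shares over all probe sets. MADS15, an AP1-like MADS gene of the inflorescence and spikelet, rose by a factor of at least 60.6 in KMR3 and at least 66.1 in IL50-7. For MADS34, which acts in the inflorescence meristem, the factors were at least 12.5 and 10.7, and the AP1-like MADS14 was 14.3-fold and 14.1-fold higher. D3, an F-box protein of strigolactone signalling, fell 4.25-fold in KMR3 (limma adjusted p = 0.00072), and LOG, a cytokinin-activating enzyme, fell 4.26-fold in IL50-7 (adjusted p = 5.09e-05). Their panicle means were lower in the other line too. D3 averaged 6.36 in IL50-7 leaf and 4.53 in IL50-7 panicle, and LOG averaged 11.6 in KMR3 leaf and 9.68 in KMR3 panicle. The median difference of the 12 genes was 0.21 in KMR3 and 0.23 in IL50-7, with large rises and falls both in it.

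Of 5 tested grain size genes, 3 rose in KMR3 and 2 in IL50-7, and none fell, beside 22.5% and 22.4% of all tested probe sets called higher. GIF1, a cell wall invertase of grain filling, rose by 4.29 ± 0.95 in KMR3 (limma adjusted p = 0.00318) and 5.51 ± 0.95 in IL50-7, at least 6.74-fold higher (adjusted p = 0.00065). GRF4, a growth-regulating factor, rose by 2.59 ± 0.71 in KMR3 (adjusted p = 0.0107). GW2, a ubiquitin ligase that limits grain width, rose 1.76-fold in KMR3 (adjusted p = 0.0296), and PGL1, an atypical bHLH protein of grain length, rose by 1.5 ± 0.50 in IL50-7 (adjusted p = 0.028). The call of GW2 held in 17 of 24 alternatives and that of PGL1 in 16 of 23. Between the lines none of the genes of these 3 lists was called in either organ. The smallest p-values in panicle were those of SPL9 (-0.30) and SPL8 (-0.47), D14 (0.31) and LOG (-0.41), and GW2 (-0.49) and PGL1 (0.71). In leaf they were those of SPL9 (-0.25) and SPL15 (-0.28), MADS15 (-1.15) and MADS34 (0.91), and PGL1 (-0.68) and GIF1 (-1.09), and MADS15, MADS34 and GIF1 had leaf means under background in each line. The interaction called none of them either.

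The genes with the most similar profiles were found by Pearson correlation over the 12 arrays among 2427 tested probe sets with a descriptive gene symbol. SPL18 was closest to SAP2 (r = 0.98) and the beta-glucosidase BGLU1 (r = 0.97). SPL16 was closest to the calmodulin CaM-3 (r = 0.97) and the auxin response factor ARF22 (r = 0.94), and SPL14 also to CaM-3 (r = 0.91) and to the cell cycle gene CKS1 (r = 0.90). SPL12 was closest to PLD2 and EIP1 (both r = 0.96). SPL4 was closest to HGO (r = 0.96) and the kinase gene CIPK25 (r = 0.96), whereas the highest values for SPL7 were only 0.72, with SPX3, and 0.68, with PUT1. The points of each correlation share the 2 organs and the same 12 arrays, so the organ difference alone gives a high r to any gene that differs between leaf and panicle.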

How the data were processed

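Total RNA from 12 samples was labelled with biotin and hybridised to Affymetrix rice arrays, per the labels. The deposited values are linear intensities per probe set, 1 column per array, and the submitters' processing notes name GCOS 1.2 without its settings. Trimmed means of 125 to 296 per array showed that they were not scaled to 1 target. The values were taken to log2, quantile normalized and floored at the 10th percentile (0.26). The 187 control probe sets were then left out, and probe sets with a mean above the 40th percentile were kept. One limma model (limma 3.58.1, R 4.3.3) with 4 group means and a variance trend gave every test, with Benjamini-Hochberg adjustment over all 34316 probe sets and a threshold of 0.05. A run on simulated data planted differences only in probe sets of below-median spread, so it does not show how the procedure does on noisier ones. Folds are given against the background where every array of the dimmer group was under it.

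Probe sets were named through the platform annotation and RefSeq names, with 22436 assigned to 1 gene and 95 to several, which were not named. Members and gene lists were chosen with earlier results of these data known. Named genes were all members, up to 4 called genes of each list with the largest change or the 2 with the smallest p where none passed, and the 2 genes most alike to each member. Same-numbered replicates correlated between -0.33 and 0.40 in their deviations, so the numbers were not taken to pair the samples. Alternatives were other filters, floors, scalings, variance models, the replicate block and arrays left out. Sequences were not used here. The number of arrays limits the precision, and the p-values measure the spread between the labelled biological replicates.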

Additional observations from a re-analysis of the deposited data

How the results depend on the processing

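The counts of SPL probe sets called between organs stayed within 1.5 times of the reported count in 23 of 24 alternatives in each line. With the filter at the 60th percentile they were 2 in KMR3 and 4 in IL50-7, since fewer members were tested. That fit called 60.3% and 59.1% of all tested probe sets. Leaving out single arrays gave 3 to 6 in KMR3 and 6 to 8 in IL50-7. Over all tested probe sets these fits called 39.9% to 49.6% in KMR3 and 37.6% to 46.9% in IL50-7. With the replicate number as a block the counts were 3 in KMR3, where SPL12 was lost (limma adjusted p = 0.0677), and 8 in IL50-7. The block fit called 46.3% and 44.5% of all tested probe sets. No alternative called a member between lines or in the interaction. SPL18 was called in both lines in 24 of 24 alternatives, and SPL14 in IL50-7 in 23 of 23 but in KMR3 in 3 of 23.

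Signs turned mainly for differences near 0, and the cause was not tested. On the deposited scale, where the median of all probe sets was 0.31 for the organ difference in KMR3 and -0.23 for the line difference in panicle, the difference was 0.062 for SPL4 Os.51367.1.S3_at between organs in KMR3, -0.13 for SPL18 and -0.015 for D14 between lines in panicle, and -0.18 for SPL12 and -0.027 for SPL15 in the interaction. With equal medians it was -0.14 for SPL18, -0.022 for D14, -0.17 for SPL12 and -0.016 for SPL15. With array weights it was 0.42 for SPL7 between organs in IL50-7, and 0.31 for SPL7, 0.060 for SPL12 and 0.14 for SPL14 between lines in panicle. Without KMR3 panicle 3 and IL50-7 panicle 2, the line difference in panicle was -0.087 for SPL4 Os.51367.1.S2_at, 0.08 for SPL7, 0.42 for SPL12, 0.20 for SPL14 and 0.43 for SPL16, and the interaction was -0.34 for Os.51367.1.S2_at and 0.60 for SPL12. Without KMR3 panicle 3 and IL50-7 panicle 1, an alternative chosen after seeing the data, SPL7 gave 0.08 between organs in IL50-7, and SPL7 0.46 and SPL14 0.14 between lines in panicle.

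Over the arrays left out singly, the line difference in panicle ranged from -0.28 to 0.30 for SPL7, -0.33 to 0.27 for SPL12, -0.42 to 0.25 for SPL14, -0.87 to 0.43 for SPL16, -0.25 to 0.57 for SPL18 and 0.25 to 1.83 for Os.51367.1.S2_at. In leaf it ranged from -0.25 to 0.73 for Os.51367.1.S1_x_at and from -0.059 to 0.59 for Os.51367.1.S2_at. The interaction ranged from -0.15 to 0.45 for SPL12 and from -0.26 to 1.05 for SPL16 and reached 1.58 for Os.51367.1.S2_at, and the organ difference of SPL7 in IL50-7 from -0.89 to 0.14. Signal over background limits SPL14 in every leaf array, SPL16 and SPL18 in most leaf arrays and SPL4 on 2 probe sets in the panicle.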
